A study of Mus musculus with 36 samples.

Results

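Livers of male wild-type C57BL/6JRj mice, 16 weeks old, were compared after 4 weeks of intermittent hypoxia (IH) or of room-air cycling (control). In IH, inspired oxygen cycled 60 times per hour between 5% and 21% from ZT0 to ZT8 of every day, where Zeitgeber time (ZT) 0 is lights on in a day of 12 h light and 12 h dark, while both groups ate chow freely. PolyA RNA was sequenced from 3 mice at each of 6 time points, ZT0, ZT4, ZT8, ZT12, ZT16 and ZT20, which gave 12 groups and 36 libraries, 18 per condition. Each library is 1 mouse, so replicates are independent animals, and the conditions share no library. The genes described here are 9 genes of hepatic gluconeogenesis and lactate handling, taken by symbol from the 24066 symbols listed on 1 row of the tables: Pck1, G6pc, Fbp1, Pcx, Slc37a4, Ldha, Gpd1, Foxo1 and Gcgr. All 9 had 1 row and all 9 passed the filter of a mean of at least 0.1 FPKM, as 13215 genes did. Values are FPKM, fragments scaled to the length of the transcript and to the mapped fragments of the library, and tests were made with limma on log2(FPKM + 1). How many reads lie behind a value is not known.

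Gluconeogenesis makes glucose from lactate, alanine and glycerol, and in the liver it maintains blood glucose between meals. Lactate is oxidized to pyruvate, pyruvate carboxylase (Pcx) and cytosolic phosphoenolpyruvate carboxykinase (Pck1) carry it around the irreversible pyruvate kinase step, and fructose-1,6-bisphosphatase (Fbp1) reverses phosphofructokinase. Glucose 6-phosphate then enters the endoplasmic reticulum through its translocase (Slc37a4), where the catalytic subunit of glucose-6-phosphatase (G6pc) releases glucose. Lactate dehydrogenase A (Ldha) interconverts pyruvate and lactate, and cytosolic glycerol-3-phosphate dehydrogenase (Gpd1) connects glycerol to the triose phosphates. Glucagon acts through its receptor (Gcgr) and cyclic AMP to raise transcription of Pck1 and G6pc, and insulin lowers it in part by keeping the forkhead factor Foxo1 out of the nucleus.

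The promoters of the 3 genes with a called difference in level, Slc37a4, Fbp1 and Ldha, and of Pck1, the classical cyclic AMP target, are shown because the values below concern their transcripts. They come from RefSeq windows on GRCm38.p6, each cut to its longest stretch in no annotated exon of the gene. Slc37a4 is chr9:44396696-44396851 (plus strand), Fbp1 is chr13:62888283-62888532 (minus strand), Ldha is chr7:46845554-46845803 (plus strand) and Pck1 is chr2:173152823-173153047 (plus strand). Capitals mark TGACGTCA (the cyclic AMP response element), its core TGACG, the E-box CACGTG, the hypoxia response cores ACGTG and GCGTG, the forkhead motifs TGTTTAC and TGTTTGC or the nuclear receptor motif AGGTCA, on either strand.
Slc37a4: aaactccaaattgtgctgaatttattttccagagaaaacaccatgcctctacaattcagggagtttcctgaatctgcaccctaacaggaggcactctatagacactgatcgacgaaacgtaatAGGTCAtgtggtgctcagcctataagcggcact
Fbp1: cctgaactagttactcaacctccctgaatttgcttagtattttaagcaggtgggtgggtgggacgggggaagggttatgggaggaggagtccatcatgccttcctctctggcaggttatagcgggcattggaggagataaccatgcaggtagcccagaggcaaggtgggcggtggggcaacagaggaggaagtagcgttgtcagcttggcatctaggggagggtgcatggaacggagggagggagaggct
Ldha: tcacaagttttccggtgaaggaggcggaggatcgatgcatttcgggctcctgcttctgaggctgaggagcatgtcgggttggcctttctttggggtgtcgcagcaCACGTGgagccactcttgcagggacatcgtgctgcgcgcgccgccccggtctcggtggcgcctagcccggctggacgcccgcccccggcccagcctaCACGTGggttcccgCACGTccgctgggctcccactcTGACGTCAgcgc
Pck1: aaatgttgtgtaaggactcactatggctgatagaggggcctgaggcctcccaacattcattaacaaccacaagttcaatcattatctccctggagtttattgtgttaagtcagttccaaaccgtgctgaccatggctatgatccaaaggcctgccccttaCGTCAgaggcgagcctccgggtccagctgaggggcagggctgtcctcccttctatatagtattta
Over the 250 bases before the start, TGACGTCA was found in 1.55% of 32851 windows of the table and, among the members, in Ldha alone. TGACG, which is part of it, was in 17.8% of windows and in those of Pck1, Ldha and Slc37a4. The Slc37a4 matches lay in 2 of its 3 windows, outside the stretch shown. CACGTG was in 6.02% of windows and in those of Ldha and Pcx, as was ACGTG, which overlaps it and was in 16.6%. GCGTG was in 28.2% of windows and in those of Foxo1 and Ldha. TGTTTAC was in 3.17% and in no member, TGTTTGC in 4.30% and in G6pc, and AGGTCA in 14.0% and in Slc37a4 and G6pc. The Fbp1 and Gcgr windows held none of these letters. The table had 12 windows for 8 members and no entry for Gpd1. A match describes letters only.

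In FPKM, which is scaled to length, Pck1 had the highest mean level over all 36 libraries (747), followed by Fbp1 (585), Ldha (345), G6pc (207), Gpd1 (133), Gcgr (130), Pcx (113), Slc37a4 (71.6) and Foxo1 (5.09). Each of the first 8 lay above at least 93.1% of the genes tested, and Foxo1 above 56.1%. The means of Gpd1 and Gcgr were closer to each other than the spread of either over the control libraries, which was 24.9 and 14.7 FPKM (SD, n = 18). The libraries themselves were alike in total, with FPKM sums from 540095 to 579428, except control ZT12 replicate 2, whose sum was 758113. That library correlated with r = 0.949 with a mouse of its own group, and the acute-phase gene Saa1 was at 20546 FPKM in it, at 22865 in IH ZT0 replicate 2 and at 12912 in control ZT16 replicate 3. The hepatocyte markers summed to 40950 to 66940 FPKM in control and 42310 to 58590 in IH. At ZT4 and ZT8, 0 of the 5 tested were lower in IH, with a median difference of 0.19 in log2(FPKM + 1). Their sums there were 40950 to 53030 FPKM in control and 53310 to 58590 in IH. At ZT12, 3 of the 5 were lower in IH, with sums of 56200 to 66940 FPKM in control and 50580 to 55380 in IH. The 9 Kupffer cell and leukocyte markers summed to between 17.8 and 55.3 FPKM in IH and between 20.5 and 326 in control, with the maximum in control ZT12 replicate 2. None of the 9 was called in level. At ZT12 all 9 were lower in IH, 6 of them at an unadjusted P under 0.05, against 24.6% of all genes in either direction. Their median difference was -0.84 in log2(FPKM + 1), with sums of 19.7 to 28.7 FPKM in IH and 34.9 to 326 in control. None of the 6 acute-phase genes was called in level either. At ZT4 and ZT8 all 6 were lower in IH, 4 of them at an unadjusted P under 0.05, against 27.1% of all genes in either direction. Their median difference was -1.62, with sums of 1263 to 1630 FPKM in IH and 1304 to 7475 in control. The part of these markers in the differences of the members at ZT4 and ZT8 and at ZT12 was not tested. Of the markers of endothelial and stellate cells, cholangiocytes, red cells, adipocytes and exocrine pancreas no gene was called in level either, Prss2 and Pnlip were listed at 0 in all 36 libraries, and Apoa1 was the 1 hepatocyte marker called (at ZT4 and ZT8). In whole liver, fewer cells of a type and less RNA per cell cannot be told apart.

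**Figure D1:**
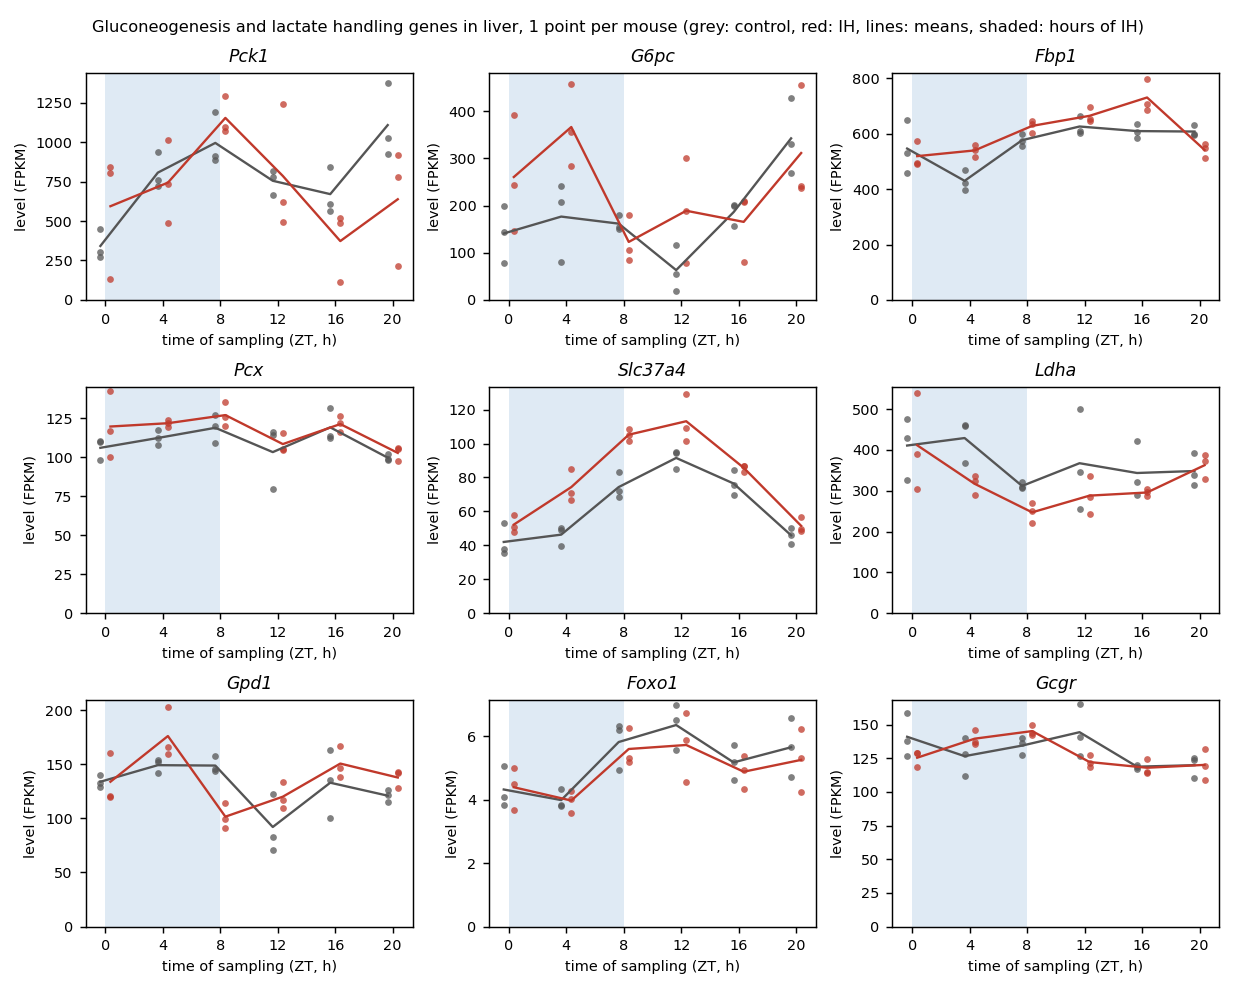
Level of each member (FPKM, linear axis from 0) against time of sampling, with 1 point per mouse, control in grey, IH in red, lines through the means of 3 mice, and the hours of IH shaded. Slc37a4 lay higher in IH on average at 6 of 6 time points, Ldha lay lower at ZT4 and ZT8, and Pck1 in IH spread from 114 to 519 FPKM at ZT16.

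Of the 9 members, Slc37a4 rose in IH over all time points and in the test of the exposure times alone, ZT4 and ZT8, where Fbp1 also rose and Ldha fell. The libraries of ZT4 and ZT8 are among those of the test over all time points, so these calls of Slc37a4 are not independent. Over all time points 1 of 9 members was called (adjusted p under 0.05, limma with Benjamini-Hochberg adjustment over all genes), against 0.356% of all genes. At ZT4 and ZT8, over 12 libraries with the time point as a factor, 3 of 9 were called, against 7.98% of all genes. The median difference in log2(FPKM + 1) was 0.11 for the members and 0.04 for all genes at ZT4 and ZT8, and 0.08 and 0.03 over all time points. By single time points, 1 member was called at ZT4 (1.16% of all genes) and none at ZT0 (0%), ZT8 (0.00757%), ZT12 (0.772%), ZT16 (0.00757%) or ZT20 (0%). At an unadjusted P under 0.05, limma gave 3 members over all time points (10.8% of all genes) and 5 at ZT4 and ZT8 (27.1%). By single time points it gave 1 at ZT0 (7.57%), 4 at ZT4 (16.4%), 2 at ZT8 (4.74%), 4 at ZT12 (24.6%), 1 at ZT16 (3.30%) and 0 at ZT20 (4.74%). The values of the 3 mice per condition lay fully apart for 0 members at ZT0 (10.8% of all genes), 6 at ZT4 (34.5%), 5 at ZT8 (18.1%), 1 at ZT12 (13.1%), 2 at ZT16 (13.8%) and 3 at ZT20 (16.0%). Of the genes called at ZT4 and ZT8, 75.8% were higher in IH, and 51.1% or 55.0% were when libraries were scaled by the median of ratios or by quantiles. This share went from 85.1% to 66.7% or 73.5% over all time points, from 76.5% to 46.8% or 50.2% at ZT4, and from 35.3% to 46.4% or 53.0% at ZT12.

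**Figure D2:**
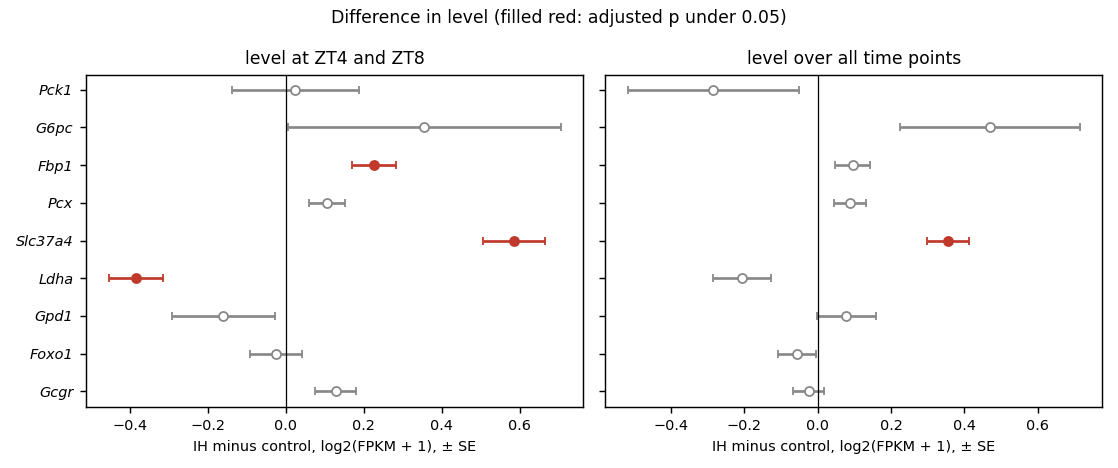
Difference between IH and control in log2(FPKM + 1) with its SE for each member, at ZT4 and ZT8 (left, 12 libraries) and over all time points (right, 36 libraries), where filled red points passed an adjusted p of 0.05. Slc37a4 is at 0.59 on the left and 0.35 on the right, and Ldha is at -0.38 on the left.

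Slc37a4, the glucose 6-phosphate translocase (chr9:44396852-44402968, GRCm38), carried the largest change among the members that passed a test. At ZT4 the control mice had 50.3, 39.5 and 49.1 FPKM and the IH mice 67.0, 70.9 and 85.1. At ZT8 the control mice had 68.3, 71.8 and 82.9 FPKM and the IH mice 102, 105 and 109. At ZT12 the control mice had 94.3, 85.2 and 95.1 FPKM and the IH mice 101, 109 and 129. Every IH mouse lay above every control mouse at these 3 time points, and the conditions overlapped at ZT0, ZT16 and ZT20, where the IH means were also higher. The ratio of means, IH to control, was 1.60 at ZT4, 1.42 at ZT8, 1.24 at ZT12, 1.24 at ZT0, and 1.12 at both ZT16 and ZT20. In limma the difference in log2(FPKM + 1) was 0.59 ± 0.08 (SE) at ZT4 and ZT8 (adjusted p = 0.00648) and 0.35 ± 0.06 over all time points (adjusted p = 0.00182), both with the exposed mice higher. At ZT4 alone it was 0.67 ± 0.13 (adjusted p = 0.00951), which became 0.57 (adjusted p = 0.0829) without IH ZT4 replicate 3. The adjusted p at ZT8 alone was 0.454.

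G6pc, which forms the glucose-releasing step together with Slc37a4 (chr11:101367561-101377903), varied far more between mice and passed no test of level. At ZT4 the control mice had 79.5, 209 and 242 FPKM and the IH mice 459, 357 and 285, so the conditions did not overlap. At ZT12 the control mice had 19.7, 54.3 and 116 FPKM and the IH mice 79.2, 188 and 300, which overlap. At ZT8 the order of the means was the other way, with 162 ± 15.6 FPKM (SD, n = 3) in control and 123 ± 50.1 in IH. The ratio of means was 2.07 at ZT4, 2.99 at ZT12 and 0.76 at ZT8. On the log2(FPKM + 1) scale the difference was 1.17 ± 0.53 (SE) at ZT4 (adjusted p = 0.263) and 1.70 ± 0.53 at ZT12 (adjusted p = 0.0779). The ZT12 difference was 2.29 (adjusted p = 0.00551) without control ZT12 replicate 3 and 2.22 (adjusted p = 0.0494) without IH ZT12 replicate 1. Without control ZT12 replicate 3, 3122 of all 13215 genes were called at ZT12, against 102 with all libraries. Without the libraries with Saa1 above 10000 FPKM, 0 genes were called there. Over all time points the G6pc difference was 0.47 ± 0.25 (adjusted p = 0.490).

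Fbp1, the bisphosphatase (chr13:62864753-62888282), rose at ZT4 and ZT8 by a small amount. At ZT4 the control mice had 423, 468 and 398 FPKM and the IH mice 543, 516 and 561. At ZT8 the control mice had 557, 573 and 600 FPKM and the IH mice 603, 647 and 635. No value of one condition fell within the other at either time, and the ratio of means was 1.25 and 1.09. At ZT16 the IH mice were again above all controls, with 731 ± 59.4 FPKM (SD, n = 3) against 610 ± 25.6. At ZT20 they were below all controls, with 542 ± 25.6 against 608 ± 19.1. The limma difference at ZT4 and ZT8 was 0.23 ± 0.06 in log2(FPKM + 1) (adjusted p = 0.0335), and it stood near the threshold. It was 0.16 (adjusted p = 0.0510) with the median of ratios and 0.14 (adjusted p = 0.141) with quantiles, and the adjusted p reached up to 0.0812 when single libraries were left out, 7 of 12 of which ended the call. Those were control ZT4 replicates 1 and 3, control ZT8 replicate 1, IH ZT4 replicates 1, 2 and 3 and IH ZT8 replicate 2.

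Pck1, which commits oxaloacetate to gluconeogenesis (chr2:173153048-173159273), did not pass a test of level, and its values in IH spread widely. In control it was lowest at ZT0, with 273, 303 and 449 FPKM, and highest at ZT20, with 1026, 924 and 1373. In IH at ZT0 the mice had 134, 845 and 802 FPKM. At ZT16 the IH mice had 114, 485 and 519 FPKM, all below the control mice with 561, 609 and 841. At ZT20 the IH mice had 212, 782 and 920 FPKM, again all below the controls. The group means were therefore 0.556 and 0.576 of control at ZT16 and ZT20 and 1.74 times control at ZT0, while ZT4, ZT8 and ZT12 were within 0.921 to 1.16 times control. In limma the difference in log2(FPKM + 1) was -1.10 ± 0.56 (SE) at ZT16 (unadjusted P = 0.0584) and -1.03 ± 0.56 at ZT20 (unadjusted P = 0.0761), with an adjusted p of 1 for both.

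The spread of Pck1 between mice of a group, pooled over time points, was 0.272 in control and 0.991 in IH (SD of log2(FPKM + 1)). In IH this was a larger spread than that of 99.6% of the genes tested, in control than that of 83.7%. The median over all genes was lower in IH (0.111) than in control (0.162). G6pc was spread alike in both conditions, with 0.702 in control and 0.680 in IH, and the other 7 members lay between 0.078 and 0.277. In IH the mouse with the lowest Pck1 of its time point also had the lowest Foxo1 at 5 of 6 time points, and in control at 2 of 6. For G6pc this was so at 3 of 6 time points in each condition. The order followed the replicate numbers of the labels in part. Pck1 was highest in replicate 3 at 5 of 6 time points in both conditions and lowest in it at none, and in IH Foxo1, G6pc, Fbp1 and Slc37a4 were also highest in replicate 3 at 5 of 6. What the numbers mark is not given in the labels. At ZT16 the IH mouse with 114 FPKM of Pck1 had 80.8 FPKM of G6pc, against 207 and 209 in the other mice of that group. At ZT0 the IH mouse with 134 FPKM of Pck1 had 146 FPKM of G6pc, against 243 and 393. At ZT20, where the lowest Pck1 in IH was 212 FPKM, G6pc in IH ran from 237 to 456 FPKM, with a mean of 311. None of the 3 IH libraries with the lowest Pck1 had Saa1 above 10000 FPKM. These counts were chosen after the values were seen and were not tested.

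**Figure D3:**
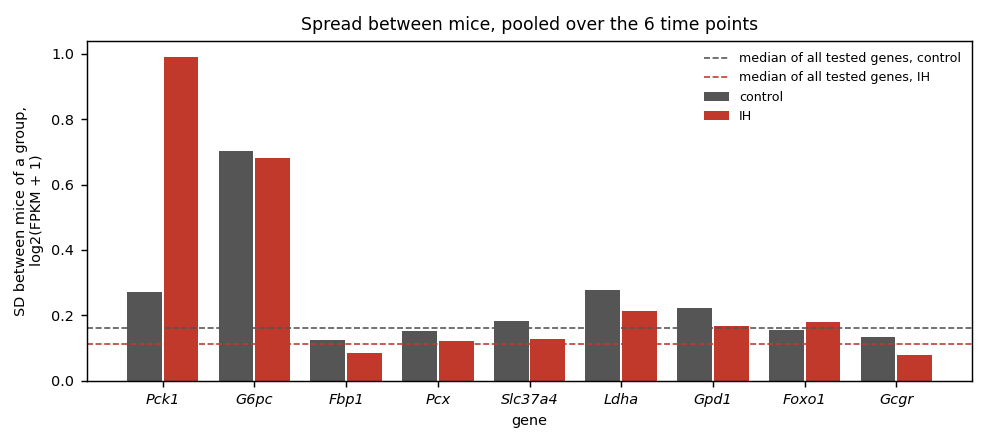
Spread between mice of a group, as the SD of log2(FPKM + 1) pooled over the 6 time points, for each member in control (grey bars) and IH (red bars), with dashed lines at the medians of all tested genes. Pck1 is at 0.272 in control and 0.991 in IH, and G6pc is near 0.7 in both.

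Pcx, which makes oxaloacetate from pyruvate in mitochondria (chr19:4510472-4621752), was nearly level. Its means in IH were 1.02 to 1.13 times those of control at all 6 time points. At ZT4 the control mice had 117, 108 and 112 FPKM and the IH mice 124, 120 and 122, so the ranges lay apart by a small margin. The limma difference was 0.11 ± 0.05 in log2(FPKM + 1) at ZT4 and ZT8 (adjusted p = 0.164) and 0.09 ± 0.04 over all time points (adjusted p = 0.459).

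Ldha, whose product interconverts pyruvate and lactate (chr7:46841475-46855627), fell in IH at ZT4 and ZT8. At ZT4 the control mice had 461, 368 and 459 FPKM and the IH mice 337.5, 289.5 and 324.5. At ZT8 the control mice had 306, 321 and 309 FPKM and the IH mice 221, 251 and 270. All IH mice were below all control mice at both times, at 0.739 and 0.793 of the control mean. The difference in log2(FPKM + 1) was -0.38 ± 0.07 (SE, limma adjusted p = 0.0150), and it stayed called in all 12 fits that each left out 1 library. At ZT0 and ZT20 the means differed little, at 1.00 and 1.04 times control, and over all time points the difference was -0.21 ± 0.08 (adjusted p = 0.330). At ZT12 control ZT12 replicate 2 had 501 FPKM, the highest of its group. The annotation also holds processed copies of Ldha (Ldha-ps and Ldha-ps2), and how reads shared with them were assigned is not known.

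Gpd1, which interconverts glycerol 3-phosphate and dihydroxyacetone phosphate (chr15:99717515-99725005), lay above control at some times and below it at another. At ZT4 the control mice had 152, 142 and 154 FPKM and the IH mice 203, 160 and 166. At ZT8 the control mice had 146, 157 and 144 FPKM and the IH mice 91.1, 99.3 and 114. At ZT20 the control mice had 126, 121 and 115 FPKM and the IH mice 143, 128 and 142. The IH mice were thus all above control at ZT4 and ZT20 and all below it at ZT8. The limma differences in log2(FPKM + 1) were 0.23 ± 0.16 at ZT4 (adjusted p = 0.476), -0.55 ± 0.16 at ZT8 (unadjusted P = 0.00149, adjusted p = 0.675) and 0.41 ± 0.16 at ZT12 (adjusted p = 0.118). The limma test of whether the difference changed over the 6 time points (n = 36) gave an unadjusted P of 0.00340 and an adjusted p of 0.151. Without control ZT12 replicate 3 that adjusted p was 0.0160, and the ZT12 difference was 0.63 (adjusted p = 0.00528). Without that library 670 of all genes were called across time points, against 18 with all libraries, and 3122 at ZT12, against 102.

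Of the regulators, neither the forkhead factor Foxo1 (chr3:52268336-52353221) nor the glucagon receptor Gcgr (chr11:120530699-120538986) was called in level. Foxo1 ranged from 3.59 to 6.97 FPKM over all libraries, and the conditions overlapped at all 6 time points, with ratios of means from 0.901 to 1.02. Its difference at ZT4 and ZT8 was -0.03 ± 0.07 in log2(FPKM + 1) (limma adjusted p = 0.842). Gcgr at ZT8 was 127, 140 and 136 FPKM in control and 144, 150 and 142 in IH, with no overlap. At the other times its ranges overlapped, and the ratios of means ran from 0.846 at ZT12 to 1.10 at ZT4. Its difference at ZT4 and ZT8 was 0.13 ± 0.05 (adjusted p = 0.146). At ZT12 it was -0.23 ± 0.09 (adjusted p = 0.135), and -0.32 (adjusted p = 0.0209) without control ZT12 replicate 3. Leaving that library out called 3122 of all genes at ZT12, against 102 with all libraries.

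A 24-h cosine was then fitted in the 18 libraries of each condition, and a gene was called rhythmic at a nominal P of 0.01 or less. In control 3 of 9 members were rhythmic, Slc37a4, Fbp1 and Foxo1, against 20.0% of all genes. In IH 4 of 9 were, Slc37a4, Fbp1, Ldha and Gcgr, against 39.9%. Slc37a4 was the clearest in both, with P = 2.1e-08 in control and P = 1.12e-10 in IH (n = 18 each) and a fitted peak 2.32 and 2.35 times the trough. Its fitted maximum was at ZT12.1 ± 0.37 (SE, h) in control and at ZT10.5 ± 0.26 in IH, a difference of -1.54 ± 0.45 h. Fbp1 peaked at ZT15.3 ± 0.98 in control (P = 0.00393, n = 18) and at ZT13.0 ± 0.60 in IH (P = 2.7e-05, n = 18), a difference of -2.28 ± 1.15 h. Foxo1 peaked at ZT13.3 ± 1.05 in control (P = 0.00710, n = 18) and missed the threshold in IH, at ZT13.1 ± 1.43 (P = 0.05, n = 18, adjusted p = 0.0900). Ldha peaked at ZT22.3 ± 0.85 in IH (P = 0.00121, n = 18) and gave P = 0.237 in control. Gcgr peaked at ZT5.8 ± 0.76 in IH (P = 0.000363, n = 18), with a fitted peak 1.23 times the trough, and gave P = 0.387 in control. Fbp1 in control lost its call without any single one of the control ZT4 mice (P up to 0.0152, n = 17), and with quantile scaling (P = 0.118). Foxo1 lost it in 8 of 18 fits that left out 1 library (P up to 0.0209), which were those without control ZT0 replicates 2 and 3, control ZT4 replicates 1, 2 and 3, control ZT12 replicates 1 and 3 and control ZT16 replicate 2.

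Whether the cosine differed between conditions was tested over all 36 libraries, and no member was called, nor any other gene (0% of all genes). At an unadjusted P under 0.05 limma gave 649 genes (4.91%) and 1 member, Slc37a4 (P = 0.00700, n = 36, adjusted p = 0.920). A rhythm called in 1 condition alone is therefore not shown to differ between them. Whether the IH effect differed across the 6 time points was called for 0 members, against 0.136% of all genes. At an unadjusted P under 0.05 limma gave 14.2% of all genes and 3 members, Gpd1, Fbp1 (P = 0.00855, n = 36, adjusted p = 0.197) and G6pc (P = 0.0335, adjusted p = 0.313).

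**Figure D4:**
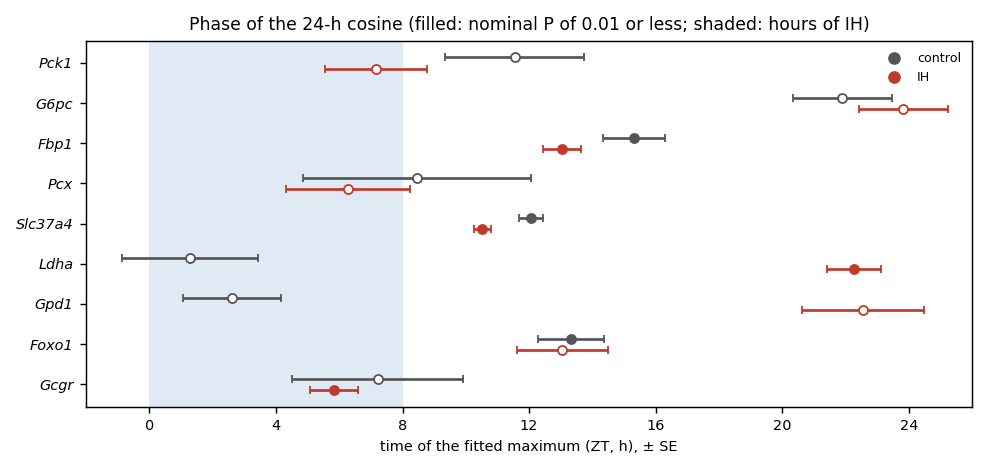
Time of the maximum of the fitted 24-h cosine (ZT, h) with its SE for each member in control (grey) and IH (red), filled where the rhythm had a nominal P of 0.01 or less, with the hours of IH shaded. Slc37a4 is at ZT12.1 in control and ZT10.5 in IH, and Fbp1 at ZT15.3 and ZT13.0.

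A cosine does not describe a course with several maxima. When the cosine was replaced by an F test among the 6 time points, again in limma, 6 of 9 members varied over the day in control (21.0% of all genes) and 5 of 9 in IH (39.7%). Pck1 varied in control (P = 1.29e-05, n = 18, cosine P = 0.249). Its means were 342 ± 94.0 FPKM (SD, n = 3) at ZT0, 995 ± 171 at ZT8, 670 ± 150 at ZT16 and 1108 ± 236 at ZT20. In IH it gave P = 0.218 (n = 18). G6pc varied in control (P = 0.00321, n = 18), from 63.2 ± 48.6 FPKM at ZT12 to 343 ± 79.9 at ZT20, and gave P = 0.0422 in IH. Gpd1 varied in control (P = 0.00770, n = 18), with its lowest mean of 92.1 ± 26.7 FPKM at ZT12. In IH Gpd1 varied too (P = 0.000475, n = 18), with its lowest mean of 102 ± 11.9 FPKM at ZT8. Without the 3 libraries with Saa1 above 10000 FPKM the cosine also called Ldha (P = 0.00226, n = 16) and Pcx (P = 0.00560) in control, which made 5 of 9. Leaving out control ZT12 replicate 2 alone, which is among them, called 3575 of all 13215 genes rhythmic in control, against 2648 with all libraries.

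Genes with a course most like that of each member were ranked by Pearson's r over the 36 libraries in log2(FPKM + 1), which includes condition, time of day and differences between libraries. Slc37a4 had close companions in Gys2 (r = 0.895), the liver glycogen synthase, and Pdhb (0.887), a subunit of pyruvate dehydrogenase. Fbp1 was closest to the urea cycle gene Asl (0.843), Coa6 (0.834) and Gm4737 (0.819). Ldha was closest to Tgm2 (0.836), Itih3 (0.825) and Prepl (0.821). Gcgr was closest to Scrn2 (0.839), Commd4 (0.833) and Glb1l (0.825), and Pcx to Asah2 (0.808), Tmem87b (0.801) and Adhfe1 (0.772). Pck1 was closest to the amino acid transporters Slc38a2 (0.795) and Slc7a2 (0.763) and to Zkscan14 (0.725). Foxo1 was closest to Klf15 (0.770), Slc15a4 (0.765) and Mknk2 (0.753), Gpd1 to Ppp2r1b (0.759), Nsmf (0.752) and Numb (0.733), and G6pc to Gem (0.697), Slc25a25 (0.652) and Arl4d (0.649). These are descriptions, with no test, and no member was among the 3 closest genes of another.

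The remaining genes of the pathway were counted in 5 lists. For comparison, 0.356% of all genes were called over all time points and 7.98% at ZT4 and ZT8. Of all genes called at ZT4 and ZT8, 75.8% were higher in IH, and the median difference of all genes tested there was 0.04. Of 12 other gluconeogenic enzymes tested, 1 rose over all time points and at ZT4 and ZT8, and none fell. It was Gpi1, glucose 6-phosphate isomerase, a reversible enzyme that serves glycolysis as well. Gpi1 had a mean of 57.9 FPKM in control and 72.5 in IH and differed by 0.30 ± 0.04 in log2(FPKM + 1) over all time points (limma adjusted p = 0.00115) and by 0.30 ± 0.05 at ZT4 and ZT8 (adjusted p = 0.0144). The median difference of the list was 0.10 at ZT4 and ZT8.

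Of 13 genes tested in the list of opposing glycolytic enzymes, which also holds the regulator Gckr, 1 rose over all time points (0.356% of all genes). At ZT4 and ZT8, 2 rose (7.98% of all genes were called), with a median difference of 0.12, and none fell in either test. Pklr, the liver pyruvate kinase, which Pcx and Pck1 together bypass, had a mean of 93.5 FPKM in control and 156 in IH. It differed by 0.71 ± 0.12 in log2(FPKM + 1) over all time points (limma adjusted p = 0.00182) and by 0.82 ± 0.15 at ZT4 and ZT8 (adjusted p = 0.0144). Gckr, the regulatory protein that holds glucokinase in the nucleus, differed by 0.24 ± 0.05 at ZT4 and ZT8 (adjusted p = 0.0245). That call was lost in 7 of 12 fits that left out 1 library, with an adjusted p of up to 0.0638, and was kept without IH ZT8 replicate 3, control ZT4 replicates 2 and 3 or control ZT8 replicates 2 and 3.

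Of 13 genes of lactate, pyruvate, alanine and glycerol handling tested, 2 rose at ZT4 and ZT8, where 7.98% of all genes were called. None was called over all time points, and the median difference at ZT4 and ZT8 was 0.20. Both genes that rose are alanine aminotransferases, which make pyruvate from alanine. Gpt2 differed by 0.44 ± 0.09 in log2(FPKM + 1) (limma adjusted p = 0.0213), which reached 0.0525 without IH ZT4 replicate 3. Gpt differed by 0.20 ± 0.05 (adjusted p = 0.0458), which was 0.14 (adjusted p = 0.159) with the median of ratios. Of 5 mitochondrial shuttle genes 1 rose at ZT4 and ZT8, Slc25a11, the oxoglutarate and malate carrier, by 0.28 ± 0.07 (adjusted p = 0.0316), with a median difference of 0.15. Of 24 hormone signalling genes and regulators 1 was called at ZT4 and ZT8, with a median difference of 0.04. Crem, a cyclic AMP responsive factor, differed by -0.41 ± 0.11 (adjusted p = 0.0421), with IH lower. Of 12 fits that each left out 1 library, the call of Gpt was lost in 10 (kept without IH ZT8 replicate 3 or control ZT4 replicate 2). That of Crem was lost in 10 (kept without control ZT4 replicate 1 or control ZT8 replicate 3). That of Slc25a11 was lost in 8 (kept without IH ZT8 replicate 3, control ZT4 replicate 2 or control ZT8 replicates 2 and 3). In the 5 lists, in the order other gluconeogenic, glycolytic, lactate and related, shuttle and regulatory, 3, 6, 4, 0 and 10 genes were rhythmic in control and 6, 10, 8, 1 and 12 in IH, beside 20.0% of all genes in control and 39.9% in IH.

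**Figure D5:**
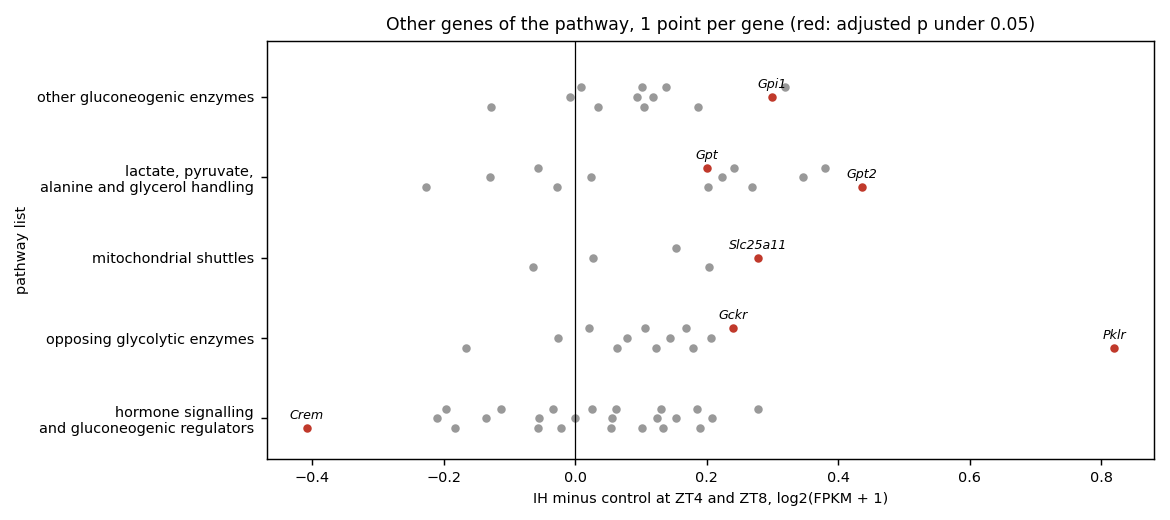
Difference between IH and control at ZT4 and ZT8 in log2(FPKM + 1), 1 point per tested gene of the 5 pathway lists, where red points passed an adjusted p of 0.05. Pklr is at 0.82, Gpt2 at 0.44 and Crem at -0.41.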

How the data were processed

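PolyA RNA of 36 mouse livers was measured, with 3 mice per condition and time point. According to the submitters' processing notes and the study's methods, the authors aligned paired reads to mm10 with TopHat2 2.1.1 and Bowtie2 and estimated FPKM per gene with Cufflinks 2.2.1, each mouse separately, and deposited these FPKM values. The annotation and any scaling between libraries are not given in the sources used here. The conditions have a table each and identical column names, so the condition was read from the table's name, and time point and replicate from the labels. Of 24346 symbols on 24883 rows, 280 symbols with repeated rows were dropped, and 0 columns were unused. With no counts, depth and the precision it gives are unknown.

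Values were analysed as log2(FPKM + 1) for the 13215 genes whose mean reached 0.1 FPKM, in R 4.3.3 with limma 3.58.1 (empirical Bayes with an intensity trend). Rhythms were tested with a 24-h cosine in the 18 libraries of a condition (nominal P of 0.01). Levels were tested over all time points and at ZT4 and ZT8 with a factor for time, and at each time point from a fit of 12 group means. Interactions were tested over all libraries, and every test but the rhythms was called at a Benjamini-Hochberg adjusted p of 0.05 over all genes. The study's own rhythm test was not used here. The tests were tried on simulated data with planted differences larger than those called for the members and the same spread in both conditions. Smaller differences and unequal spreads were not simulated. Same-numbered mice of the conditions come from no shared animal, so no pairing was used. Their deviations from the group means correlated above 0.1 in 6 of 18 pairs. These were replicates 1, 2 and 3 at ZT12 (r = 0.294, 0.266 and 0.136), 1 and 2 at ZT20 (0.134 and 0.164) and 3 at ZT4 (0.105). Whether same-numbered mice share an order of collection or handling was not tested.

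All 9 members are named. So are the 3 genes most like each and, of the pathway lists, every gene called over all time points or at ZT4 and ZT8, except that 1 list gene, left out of its list's counts, and 1 of the most alike genes are not reported here. The members and lists were chosen with earlier results of these data known. Positions are from GENCODE vM21 and promoters from RefSeq, both on GRCm38, of which mm10 is the UCSC name. Alternatives were a pseudocount of 0.1, no filter or a mean of at least 1 FPKM, the median of ratios, quantiles, the replicate block, other thresholds, an F test over time points, a shared spread, leaving out each library and, added after seeing the data, leaving out 3 libraries with Saa1 above 10000 FPKM. Python 3.11.15 with matplotlib 3.10.9 made the figures.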

Additional observations from a re-analysis of the deposited data

Results flagged for a closer look

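For 2 members, all IH mice lay above all control mice at some time points and below them at another. Of all genes, 34.5% lay fully apart in either direction at ZT4, 18.1% at ZT8, 13.8% at ZT16 and 16.0% at ZT20. How many of all genes lay apart in both directions was not counted. Fbp1 had an IH to control ratio of means of 1.25 at ZT4, 1.09 at ZT8 and 1.20 at ZT16, each with all IH mice higher, and of 0.891 at ZT20, with all IH mice lower. Gpd1 had a ratio of 1.18 at ZT4 and 1.14 at ZT20 with all IH mice higher, and of 0.683 at ZT8 with all lower. The difference between single time points was not tested, and the limma test of the IH effect over all 6 time points gave an adjusted p of 0.197 for Fbp1 and 0.151 for Gpd1.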

How the results depend on the processing

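For the members and named pathway genes, 572 alternatives were run on results that passed a test, and 67 of them ended the call. Of those on differences in level, 0 changed the direction. The rhythm and interaction tests, counted in the totals here, have no direction to change. Some alternatives, such as another threshold, leave a difference as it is by design. Of 3886 run on results that passed no test, 52 changed the sign of the difference and 22 made a call. The members' counts at ZT4 and ZT8, over all time points and of rhythms in IH were within 1.5 times under every alternative run. The cause of the changes below was not tested. Rhythmic members in control were 3 (20.0% of all genes), and 6 with the F test over 6 time points (21.0%). They were 5 without the libraries with Saa1 above 10000 FPKM and 1 to 4 with 1 library left out. With 1 library left out, 2290 to 3575 of all genes were rhythmic in control, against 2648 with all libraries. Members called at ZT4 were 1, and 2 at a nominal P of 0.01, 3 without the high Saa1 libraries and 0 to 2 with 1 library left out. At ZT12 they were 0, and 1 at a nominal P of 0.01 and 0 to 3 with 1 library left out. At ZT8 they were 0, and 2 at a nominal P of 0.01. For the IH effect across time points they were 0, and 0 to 1 with 1 library left out.

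Counts over all genes moved more. At a nominal P of 0.01 they went from 0 to 285 at ZT0, 153 to 843 at ZT4, 1 to 149 at ZT8, 102 to 1269 at ZT12, 1 to 82 at ZT16, 0 to 152 at ZT20, 1054 to 1636 at ZT4 and ZT8, and 47 to 442 over all time points. Without the high Saa1 libraries they were 105 in place of 18 for the effect across time points, 1344 at ZT4, 0 at ZT12, 4 at ZT16 and 183 over all time points. With no filter they were 10 at ZT0, 25 at ZT12 and 614 at ZT4 and ZT8, and with a mean of at least 1 FPKM 1 at ZT0 and 0 at ZT8. With the median of ratios they were 37 across time points, 2 at ZT0, 220 at ZT12 and 0 at ZT16, and with quantiles 54, 4, 215 and 2. A pseudocount of 0.1 gave 9 across time points and 0 at ZT8. The replicate block, for numbers that do not pair the mice, gave 8 across time points and 1 at ZT12, an adjusted p of 0.0505 for Fbp1 at ZT4 and ZT8 and P = 0.0125 (n = 18) for the Foxo1 rhythm in control, and no other call of a member changed with it. With 1 library left out, counts ran from 3 to 670 across time points (670 without control ZT12 replicate 3), 0 to 25 at ZT0, 22 to 799 at ZT4, 0 to 2 at ZT8, 0 to 3122 at ZT12 (3122 without control ZT12 replicate 3), 0 to 3 at ZT16, 0 to 1 at ZT20, 231 to 1342 at ZT4 and ZT8 and 28 to 157 over all time points.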
